A study of Mus musculus with 10 samples.

Results

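The 34 genes described here carry out the uptake and mitochondrial oxidation of fatty acids in mouse muscle. They are listed by their known part in the pathway, and no value enters the rule that lists them. The choice was nevertheless made with earlier results of these data known. The named genes are Cd36, Fabp3, Slc27a1 and Acsl1 for uptake and activation, Cpt1a, Cpt1b, Cpt2, Slc25a20 and Mlycd for the carnitine shuttle, 12 genes of beta oxidation, Etfa, Etfb and Etfdh for electron transfer, Acot1, Acot2 and Acot13 as thioesterases, Pdk2 and Pdk4 as pyruvate dehydrogenase kinases, Ppara, Ppard and Ppargc1a as transcriptional regulators, and Ucp2 and Ucp3 as mitochondrial carriers. All 34 had a probe on the array, out of 19752 gene symbols that could be named in all.

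Expression was measured on 10 one-colour Agilent arrays, 2 for each of 5 groups. Of these, 3 groups were muscle of male C57BL/6J mice: untreated wild type mice, hSA::Fv2E-PERK transgenic mice injected with vehicle, and hSA::Fv2E-PERK transgenic mice injected intraperitoneally with AP20187 at 1 ng/g, with muscle taken 12 h after injection. The remaining groups were the mouse myoblast line C2C12 carrying Fv2E-PERK, differentiated for 3 days in horse serum and given vehicle (ethanol) or AP20187 at 100 nM for 12 h. Fv2E-PERK joins the kinase domain of PERK, an endoplasmic reticulum stress kinase, to a domain that AP20187 brings together in pairs. Active PERK phosphorylates the translation initiation factor eIF2alpha and so starts the integrated stress response. hSA stands for the human skeletal actin promoter, which restricts the transgene to muscle fibres. The ages of the mice, the muscle taken, whether RNA was pooled and whether the C2C12 line is 1 clone are not given in the sources used here. The wild type mice were not injected, so that genotype and injection differ together between them and the vehicle group.

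Fatty acids enter a muscle cell with the help of Cd36 and other carriers, are bound in the cytosol by Fabp3 and are joined to coenzyme A by Acsl1. They pass into the mitochondrion as carnitine esters, are shortened there by the enzymes of beta oxidation, and deliver electrons to the respiratory chain through the electron transfer flavoprotein. In muscle these genes are known as targets of the PPAR receptors and the coactivator Ppargc1a, and they rise with fasting and endurance exercise.

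Levels are log2 signals relative to the 75th percentile of the gene spots of the same array, so 0 is the 75th percentile and 1 unit is a doubling. They compare arrays for 1 gene and not genes with each other. Between 41% and 53.1% of gene spots were well above background on each array. From 0.16% to 0.376% of the spots were flagged as uneven or outlying on 8 arrays, against 2.37% and 2% on the C2C12 AP20187 arrays. The wild type arrays came from a scan of their own and the 4 transgenic muscle arrays from another, so scan and genotype cannot be told apart. In muscle, AP20187 and vehicle were compared within 1 scan. There vehicle array 2 lay in slide row 2 and the other transgenic arrays in row 1. Which arrays shared a slide was not settled here. The C2C12 vehicle arrays and the C2C12 AP20187 arrays lay in different slide rows, so row and treatment cannot be told apart there. Nothing in the labels says that 2 arrays of a group came from separate animals or cultures, so p-values measure the spread between these samples, which may be technical. All p-values are limma's, adjusted by the method of Benjamini and Hochberg over all genes tested, and a gene is said to rise, fall or be called at an adjusted p under 0.05. All 34 genes were tested in muscle and 30 in C2C12.

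In vehicle-injected transgenic muscle, most of these genes stood above untreated wild type muscle: 20 of the 34 were higher and 3, Pdk4, Ppara and Ucp3, were lower. Over all 13543 genes tested in muscle, 25.7% were higher and 12.6% lower in the same comparison. The median log2 difference was 0.41 over the 34 genes and 0.09 over all genes. AP20187 was followed 12 h later by lower levels of 9 of the 34, Cd36, Fabp3, Acadm, Hadhb, Eci1, Eci2, Decr1, Acaa2 and Etfb, and by a higher level of 1, the thioesterase Acot2. Here 14.3% of all genes rose and 15.0% fell, and the median log2 difference was -0.23 over the 34 genes against -0.11 over all genes. The 2 comparisons share the vehicle arrays, which enter them with opposite sign.

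The counts depended on how the arrays were scaled and on single arrays. With quantile normalisation, the 34 genes split into 10 higher and 7 lower between vehicle and wild type, and 2 higher and 2 lower with AP20187. The split of all calls with AP20187 went from 48.9% higher to 63.3% higher under the same change, and that of all calls between vehicle and wild type from 67.1% to 52.8%. With the percentile taken over probes detected on all arrays, 17 were higher and 5 lower between vehicle and wild type, and 47.0% of all calls there were higher. When any 1 of the 6 muscle arrays was left out, 2 to 4 genes in place of 9 were lower with AP20187: 4 without either wild type array, 3 without either vehicle array, 2 without AP20187 array 1 and 4 without AP20187 array 2. Of the 10 calls with AP20187, those of Fabp3, Eci2 and Acot2 stood under all 17 alternatives computed for this comparison.

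**Figure D1:**
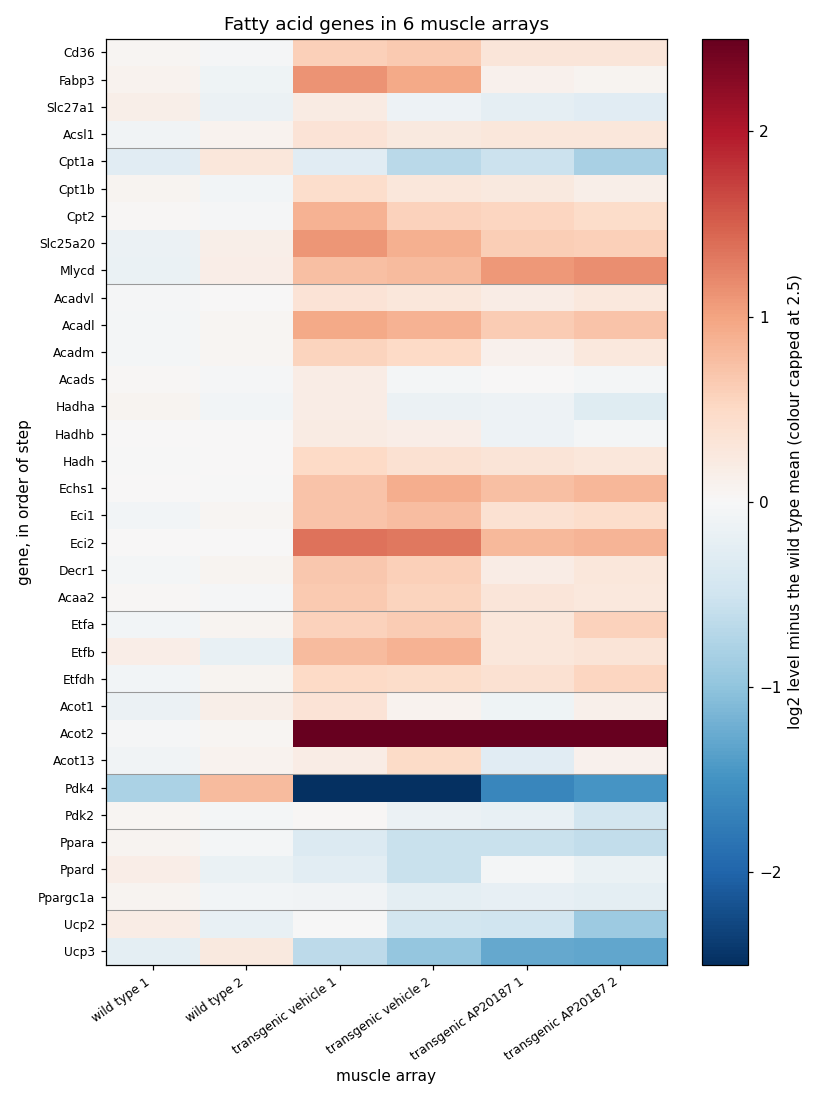
Log2 level of each of the 34 genes on the 6 muscle arrays minus the mean of the wild type arrays, in order of step from uptake (top) to uncoupling (bottom), as colour from -2.5 (blue) to 2.5 (red). The vehicle columns are mostly red from Cd36 to Etfdh and paler in the AP20187 columns, with Acot2 the darkest red row and Pdk4 the darkest blue row.

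Many of the 34 genes give bright spots, and bright genes as a whole moved in the same directions. Among the 1974 tested genes with a mean muscle level of 4 or more, a limit chosen after seeing the values, 46.1% were higher in vehicle than in wild type muscle and 10.5% were lower. Of the 34 genes, 21 passed this limit, 17 of them higher and 1 lower. With AP20187, 8.05% of the bright genes rose and 28.6% fell, and of the 21 none rose and 8 fell. The median log2 difference with AP20187 was -0.23 both for the 21 and for all 1974 bright genes, whereas between vehicle and wild type it was 0.6 for the 21 against 0.29. Nothing particular to the pathway is read from the count of falls with AP20187.

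Among the genes of uptake and activation, Fabp3, the fatty acid binding protein of heart and skeletal muscle, changed most. Its log2 level was 8.45 and 8.26 in wild type muscle, 9.49 and 9.31 with vehicle, and 8.47 and 8.43 with AP20187. Both vehicle arrays stood above the other 4, and the AP20187 arrays lay within or next to the wild type range. Vehicle exceeded wild type by 1.04 (SE 0.11, adjusted p 0.000495), and AP20187 lowered the level by 0.94 on the log2 scale (SE 0.11, adjusted p 0.00138, 1.92-fold). A second Fabp3 probe had group means of 8.12 in wild type, 9.17 with vehicle and 8.08 with AP20187.

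Cd36, a fatty acid translocase of the plasma membrane, read 3.56 and 3.49 in wild type, 4.12 and 4.18 with vehicle, and 3.83 and 3.83 with AP20187. The 3 groups did not overlap, and the AP20187 arrays lay between the other groups. Vehicle was 0.63 above wild type (SE 0.09, adjusted p 0.00146), and the level fell by 0.32 with AP20187 (SE 0.09, adjusted p 0.0288). The fall missed the threshold when any single muscle array was left out, with adjusted p from 0.0547 to 0.115. Acsl1, which activates long-chain fatty acids, read 5.73 and 5.89 in wild type and 6.05 to 6.15 in all 4 transgenic arrays. Its difference between vehicle and wild type was 0.29 (SE 0.09, adjusted p 0.0429), was lost without any 1 of the 6 arrays, and changed sign to -0.10 with quantile normalisation. AP20187 and vehicle differed by -0.01 for Acsl1. Slc27a1, a fatty acid transport protein, ranged from 2.44 to 2.92 over the 6 muscle arrays and was not called in either comparison.

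The promoters of these genes were searched for letters that the regulators named above are known to recognise, since several genes moved together. RefSeq promoter windows of 250 bases before and 50 after the start site were at hand for 30 of the 34 genes on build GRCm38.p6. A direct repeat of AGGNCA with 1 base between, the form bound by PPAR with its partner RXR, stood in 0 of the 30 and in 0.381% of all 32841 windows. TCAAGGTCA, bound by the estrogen-related receptors, stood in 0 of the 30 and in 0.423% of all. TGATGNAA, the form bound by ATF4 with a C/EBP partner, stood in 2 of the 30, Fabp3 and Echs1, which is 6.67% against 3.97% of all. The shorter AGGTCA, a single copy of the receptor element and a part of TCAAGGTCA, was added after the others were seen. It stood in 6 of the 30, which is 20%, against 16.3% of all. Both strands were searched, and a match is only a match of letters. The shares of the 30 count genes with a match in any of their windows, and the shares of all count windows. The 2 kinds of share are therefore not strictly alike. Not all matches are printed, those in Echs1, Acadm and Acadvl being left out. The windows below were chosen after the values were seen. They are given 5′ to 3′ on the strand of the gene, with the matched letters in capitals: TGATGNAA on the opposite strand in Fabp3, and AGGTCA in the others, on the opposite strand in Cd36 and Cpt1a.
Fabp3, chr4:130308662-130308719, plus strand: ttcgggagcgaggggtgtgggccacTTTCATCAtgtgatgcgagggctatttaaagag
Cd36, chr5:17836094-17836146, minus strand: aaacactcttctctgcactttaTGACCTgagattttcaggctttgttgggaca
Cpt1a, chr19:3323182-3323237, plus strand: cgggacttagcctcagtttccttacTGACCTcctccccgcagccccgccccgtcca
Ucp3, chr7:100472817-100472872, plus strand: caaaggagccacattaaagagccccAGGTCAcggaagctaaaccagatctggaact
Ucp3, chr7:100472922-100472977, plus strand: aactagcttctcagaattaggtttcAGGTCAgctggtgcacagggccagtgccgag

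In the carnitine shuttle, 4 of 5 genes were higher in vehicle than in wild type muscle, against 25.7% of all genes. The share was 46.1% among genes with a mean muscle level of 4 or more. None of the 5 was called with AP20187. Slc25a20, the carnitine-acylcarnitine carrier of the inner membrane, read 1.94 and 2.23 in wild type, 3.18 and 2.96 with vehicle, and 2.69 and 2.68 with AP20187. It was 0.98 higher with vehicle than in wild type (SE 0.13, adjusted p 0.00113), and its difference with AP20187 was -0.38 (SE 0.13, adjusted p 0.0583, and 0.0483 when the 4 transgenic arrays were fitted alone). Cpt2, the inner carnitine palmitoyltransferase, read 4.51 and 4.47, then 5.36 and 5.07, then 5.03 and 4.95 in the same order of groups. Vehicle was 0.72 above wild type for Cpt2 (SE 0.11, adjusted p 0.00226).

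The outer carnitine palmitoyltransferase, the entry step of the shuttle, has a muscle form, Cpt1b, and a form named for liver, Cpt1a. Cpt1b read 5.05 and 4.93 in wild type, 5.42 and 5.28 with vehicle, and 5.24 and 5.14 with AP20187, and vehicle was 0.36 higher than wild type (SE 0.10, adjusted p 0.0218). That call was lost without either wild type array or without vehicle array 1, with adjusted p from 0.0591 to 0.134. Cpt1a read -0.01 and 0.57 in wild type, 0.00 and -0.39 with vehicle, and -0.26 and -0.54 with AP20187. Wild type array 2 was the high one, the wild type and vehicle groups overlapped, and without wild type array 1 the difference of vehicle from wild type, -0.47 (adjusted p 0.129), became -0.76 (adjusted p 0.0462). A second, dimmer Cpt1a probe, well above background on 4 of the 6 muscle arrays, had group means of -3.12, -2.97 and -3.07 in wild type, vehicle and AP20187 muscle.

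Mlycd, malonyl-CoA decarboxylase, removes the inhibitor of this entry step. It read 5.07 and 5.41 in wild type, 6.00 and 6.04 with vehicle and 6.33 and 6.41 with AP20187, with no overlap between groups. Vehicle was 0.78 above wild type (SE 0.12, adjusted p 0.00234), and AP20187 was 1.14 above wild type (adjusted p 0.000249). The step from vehicle to AP20187, 0.35 (SE 0.12), had an adjusted p of 0.0619. It passed at 0.041 when the 4 transgenic arrays were fitted alone, and at 0.044 and 0.0438 without wild type array 1 or 2.

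Among the 12 genes of beta oxidation, 9 were higher in vehicle than in wild type muscle, the exceptions being Acads, Hadha and Hadhb, and 6 fell with AP20187. Over all genes, 25.7% were higher with vehicle than in wild type muscle and 15.0% fell with AP20187. Among genes with a mean muscle level of 4 or more, to which most of the 12 belong, these shares were 46.1% and 28.6%. Eci2, an isomerase that prepares unsaturated fatty acids for the cycle, had the largest difference from wild type of the 12. Its levels were 4.85 and 4.85 in wild type, 6.21 and 6.17 with vehicle, and 5.67 and 5.70 with AP20187. The 3 groups did not overlap, and the replicates lay close together. Vehicle was 1.34 above wild type (SE 0.08, adjusted p 5.62e-05), and AP20187 lowered the level by 0.50 (SE 0.08, adjusted p 0.00515).

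The related isomerase Eci1 read 6.10 and 6.21 in wild type, 6.88 and 6.93 with vehicle, and 6.55 and 6.60 with AP20187. Decr1, a reductase for polyunsaturated fatty acids, read 6.03 and 6.14, then 6.76 and 6.68, then 6.27 and 6.37 in the same order. For both genes the AP20187 arrays lay between wild type and vehicle. Eci1 was 0.75 higher with vehicle (SE 0.09, adjusted p 0.000819) and fell by 0.32 with AP20187 (SE 0.09, adjusted p 0.0303). Decr1 was 0.64 higher with vehicle (SE 0.09, adjusted p 0.00176) and fell by 0.40 with AP20187 (SE 0.09, adjusted p 0.0173). The AP20187 call of Decr1 was lost without vehicle array 1 (adjusted p 0.0587) or AP20187 array 1 (adjusted p 0.0936), and that of Eci1 without any 1 of the 6 arrays.

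The acyl-CoA dehydrogenases open each turn of the cycle and divide the work by chain length. Acadl, for long chains, read 3.94 and 4.03 in wild type, 4.94 and 4.85 with vehicle, and 4.62 and 4.70 with AP20187, and vehicle was 0.90 above wild type (SE 0.09, adjusted p 0.000446). Acadm, for medium chains, read 6.21 and 6.31, then 6.82 and 6.76, then 6.37 and 6.53. Acadvl, for very long chains, read 7.38 to 7.41 in wild type, 7.69 to 7.75 with vehicle, and 7.59 to 7.67 with AP20187. For Acadm, vehicle was 0.54 above wild type (SE 0.10, adjusted p 0.00405) and the level fell by 0.34 with AP20187 (SE 0.10, adjusted p 0.0316). For Acadvl, vehicle was 0.32 above wild type (SE 0.09, adjusted p 0.0229), which was lost without either wild type array or vehicle array 1 and turned to -0.27 with quantile normalisation. Acads, for short chains, stayed between 2.27 and 2.5 on all 6 muscle arrays and was not called.

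The later enzymes of the cycle differed among themselves. Echs1, the enoyl-CoA hydratase, was 0.81 above wild type with vehicle (SE 0.10, adjusted p 0.000897) and stayed at 5.70 and 5.78 with AP20187, next to 5.66 and 5.86 with vehicle. Acaa2, the thiolase that cuts off acetyl-CoA, was 0.60 above wild type (SE 0.09, adjusted p 0.00186) and fell by 0.32 with AP20187 (SE 0.09, adjusted p 0.0313). Hadh, which acts on shorter chains, was 0.45 above wild type (adjusted p 0.00576), and its difference with AP20187 was -0.14 (adjusted p 0.237). Hadha and Hadhb are the subunits of the trifunctional protein of the inner membrane. Hadha ranged from 3.23 to 3.73 over the muscle arrays and was not called. Hadhb read 6.75 and 6.72 with vehicle and 6.43 and 6.5 with AP20187, a fall of 0.27 (SE 0.08, adjusted p 0.0466). The AP20187 calls of Acadm, Acaa2 and Hadhb were each lost without any 1 of the 6 arrays, with adjusted p from 0.0505 to 0.203.

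The electron transfer flavoprotein carries electrons from the acyl-CoA dehydrogenases to the respiratory chain. All 3 of its genes were higher in vehicle than in wild type muscle, against 25.7% of all genes. All 3 are bright, and 46.1% of the genes with a mean muscle level of 4 or more were higher. Etfb, its beta subunit, read 7.64 and 7.29 in wild type, 8.27 and 8.33 with vehicle, and 7.76 and 7.79 with AP20187. Vehicle was 0.83 above wild type (SE 0.12, adjusted p 0.0019), and the level fell by 0.53 with AP20187 (SE 0.12, adjusted p 0.018). The fall missed the threshold without vehicle array 2, AP20187 array 1 or AP20187 array 2, with adjusted p from 0.058 to 0.0804. Etfa, the alpha subunit, was 0.61 above wild type with vehicle (SE 0.12, adjusted p 0.00548), and Etfdh, the oxidoreductase that receives the electrons, was 0.47 above it (SE 0.10, adjusted p 0.00726). The Etfdh difference missed the threshold without wild type array 1 (0.40, adjusted p 0.0638). With AP20187, Etfa differed by -0.18 and Etfdh by -0.01, and neither was called.

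**Figure D2:**
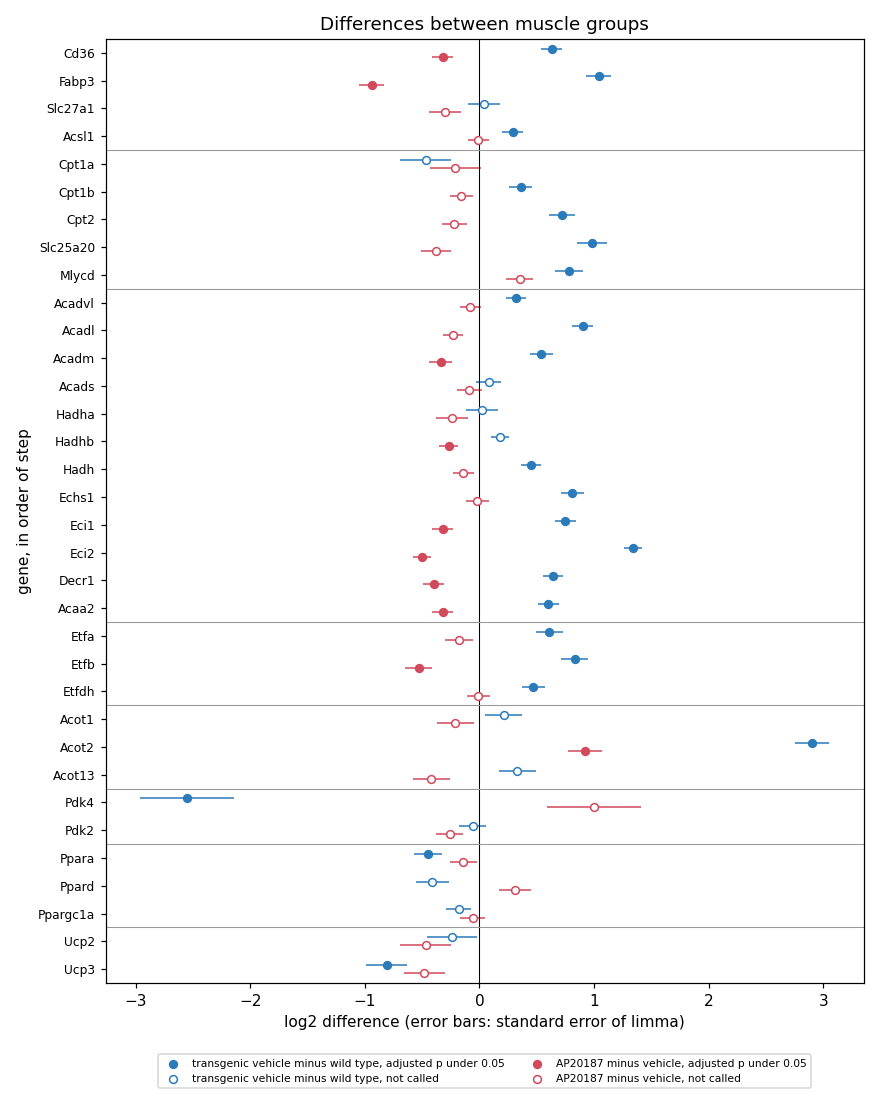
Log2 difference of each of the 34 genes between vehicle-injected transgenic and wild type muscle (blue) and between AP20187 and vehicle in transgenic muscle (red), with limma's standard error, filled where the adjusted p was under 0.05. The blue points of the uptake, shuttle, beta oxidation and electron transfer genes lie mostly right of 0 and the red points mostly left of it, apart from Acot2 and Mlycd, which lie right of 0 for both. The colours share the vehicle arrays.

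Thioesterases release free fatty acid from its coenzyme A ester, and the mitochondrial form Acot2 was the gene of the 34 with the largest difference from wild type. Its level was -0.76 and -0.69 in wild type, 2.41 and 1.93 with vehicle, and 3.09 and 3.09 with AP20187. The 3 groups did not overlap and rose in that order. Vehicle was 2.90 above wild type (SE 0.15, adjusted p 2.88e-05, 7.45-fold), and AP20187 raised the level by a further 0.92 (SE 0.15, adjusted p 0.00555, 1.90-fold). Acot1, its cytosolic neighbour and near copy, read 0.05 and 0.34, then 0.54 and 0.27, then 0.08 and 0.31, with overlapping groups and no call. Each has 1 probe here. Because the genes are close paralogues, signal from one at the probe of the other was not tested. Acot13, another mitochondrial thioesterase, read 7.17 and 7.46 with vehicle and 6.70 and 7.09 with AP20187. Its difference with AP20187 of -0.42 had an adjusted p of 0.0764, and -0.62 with 0.034 without AP20187 array 2.

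The pyruvate dehydrogenase kinases switch off the entry of pyruvate into the mitochondrion's oxidative cycle, and Pdk4 is the form known to rise when muscle turns from glucose to fat. Pdk4 went against most of the other genes. It read 5.23 and 6.82 in wild type, 3.49 and 3.47 with vehicle, and 4.40 and 4.55 with AP20187. The wild type arrays stood far apart, both above all 4 transgenic arrays, and the AP20187 arrays stood above the vehicle arrays. Vehicle was 2.55 below wild type on the log2 scale (difference -2.55, SE 0.41, adjusted p 0.00277). The difference was -1.75 without wild type array 2 and -3.35 without wild type array 1, and it was called in both cases. AP20187 and vehicle differed by 1.00 (SE 0.41, adjusted p 0.105) in the fit that pools the spread over all 3 groups. With the 4 transgenic arrays alone the adjusted p was 0.00142, and it was 0.0018 and 0.00189 without wild type array 1 or 2. Pdk2, the form with a steady level in muscle, ranged from 5.99 to 6.49 and was not called in either comparison.

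Of the 3 transcriptional regulators, 1 was called between vehicle and wild type and none with AP20187. Ppara, the receptor that drives oxidation genes in response to fatty acids, read 1.44 and 1.33 in wild type, 1.04 and 0.82 with vehicle, and 0.83 and 0.76 with AP20187. Vehicle was lower than wild type for Ppara, by -0.45 (SE 0.12, adjusted p 0.0196), which missed the threshold without either wild type array or without vehicle array 2. Its other probes had group means of 2.04, 1.86 and 2.15, and of 0.19, 0.11 and 0.29, in wild type, vehicle and AP20187 muscle, and with the mean over the probes the call was lost. Ppard, the receptor form prevalent in muscle, read 2.87 and 2.55, then 2.44 and 2.15, then 2.67 and 2.54, and was not called, although its difference of vehicle from wild type passed without wild type array 2 (-0.57, adjusted p 0.0397) or vehicle array 1 (-0.56, adjusted p 0.0438). Ppargc1a, the coactivator of mitochondrial genes, stayed between 2.21 and 2.53 on the 6 arrays, and its difference with AP20187 was -0.06 (SE 0.11).

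Of the mitochondrial carriers, Ucp3 was called lower than in wild type muscle with vehicle and with AP20187, and Ucp2 only with AP20187. With vehicle, Ucp2 differed from wild type by -0.24 (SE 0.22, adjusted p 0.432), and the groups overlapped. Ucp3, the muscle form, read 0.75 and 1.23 in wild type, 0.34 and 0.02 with vehicle, and -0.29 and -0.30 with AP20187, with no overlap. Vehicle differed from wild type by -0.81 (SE 0.18, adjusted p 0.0107), which missed the threshold without wild type array 2 (adjusted p 0.0604) or vehicle array 2 (adjusted p 0.074). AP20187 muscle differed from wild type by -1.28 (SE 0.18, adjusted p 0.000871), and from vehicle by -0.48 (adjusted p 0.0812). A second Ucp3 probe had the same order with a wider gap, at means of 1.40, -0.97 and -1.61. Ucp2, found in many tissues, read -0.28 and -0.65, then -0.48 and -0.93, then -0.96 and -1.38. AP20187 muscle was below wild type for Ucp2 by -0.70 (SE 0.22, adjusted p 0.0298), a call lost without wild type array 1 or AP20187 array 2.

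**Figure D3:**
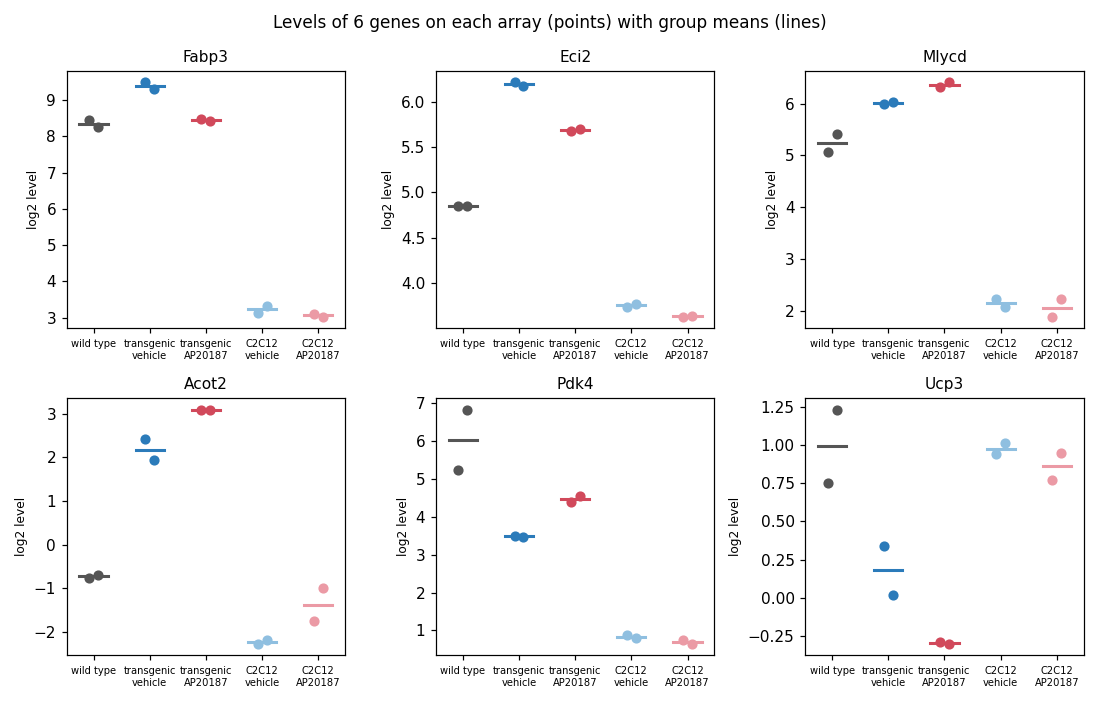
Log2 level of Fabp3, Eci2, Mlycd, Acot2, Pdk4 and Ucp3 on each array (points) with the mean of each group of 2 (lines), each gene on an axis of its own that does not start at 0. Fabp3 on the AP20187 arrays is back near wild type, Acot2 and Mlycd are highest and Ucp3 lowest on the AP20187 arrays among the muscle groups, and Pdk4 shows the 2 wild type arrays far apart.

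Set directly against untreated wild type, AP20187-injected transgenic muscle had 14 of the 34 genes higher and 6 lower. The background was wide, with 29.6% of all genes higher and 22.6% lower, and the medians were 0.22 for the 34 genes and 0.04 for all. The largest of the higher differences were those of Acot2 at 3.82 (SE 0.15, adjusted p 3.06e-06, 14.1-fold), Mlycd at 1.14, Eci2 at 0.84, Echs1 at 0.79, Acadl at 0.67 and Slc25a20 at 0.60. Fabp3, by contrast, differed from wild type by 0.10 (SE 0.11, adjusted p 0.48). The 6 lower genes were Pdk4 at -1.55 (SE 0.41, adjusted p 0.0152), Ucp3, Ucp2, Cpt1a at -0.68 (adjusted p 0.0322), Ppara at -0.59 (adjusted p 0.00431) and Pdk2 at -0.32 (adjusted p 0.0471). The other Ppara probes were not lower, with means of 2.15 and 0.29 with AP20187 against 2.04 and 0.19 in wild type. Nor was the second, dimmer Cpt1a probe, at -3.07 against -3.12. With the mean over the probes of a gene, the lower count was 4. The higher count was 8 without wild type array 1 and 9 without AP20187 array 2, and the lower count was 3 without AP20187 array 2. With quantile normalisation 8 were higher and 8 lower, and with the percentile over detected probes 10 were higher and 7 lower, where 46.1% of all calls were higher in place of 56.6%.

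Other genes of fat handling were followed through lists made by name. Over all genes, 25.7% were higher and 12.6% lower with vehicle against wild type, and 14.3% rose and 15.0% fell with AP20187. Of 15 genes of lipid release and storage, 8 were higher and 1 lower in vehicle than in wild type muscle, and 2 rose with AP20187. G0s2, an inhibitor of the lipase Pnpla2, read 2.86 and 2.13 in wild type, 5.98 and 6.11 with vehicle, and 6.49 and 6.62 with AP20187, and its vehicle difference was 3.55 (SE 0.21, adjusted p 4.29e-05). Plin5, a lipid droplet coat protein that meets mitochondria, was 0.99 higher with vehicle than in wild type (SE 0.16, adjusted p 0.00298). The rises with AP20187 were those of Plin4, another droplet coat protein, at 0.71 (SE 0.12, adjusted p 0.00609) and Dgat2, which completes triglyceride synthesis, at 0.51 (SE 0.14, adjusted p 0.0296). Plin4 rose from a low vehicle level, with means of 5.63 in wild type, 4.8 with vehicle and 5.51 with AP20187. The means of Dgat2 were 4.99, 5.79 and 6.29 in the same order.

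Of 19 further genes of uptake, carnitine and mitochondrial fatty acid metabolism, 5 were higher and 2 lower with vehicle against wild type, and 0 rose and 4 fell with AP20187. The shares of all genes were 25.7% and 12.6% with vehicle against wild type, and 14.3% and 15.0% with AP20187. Dbi, an acyl-CoA binding protein, fell by 0.83 with AP20187 (SE 0.14, adjusted p 0.00527). Of 17 genes of peroxisomal oxidation, 9 were higher and 2 lower with vehicle against wild type and 0 rose and 3 fell with AP20187, among them Abcd2, an importer of very long chains, at -1.15 (SE 0.17, adjusted p 0.00374). Of 14 tested genes of fatty acid synthesis, 1 rose and 4 fell with AP20187, with a median of -0.65. Those that fell included Scd2, a desaturase, at -1.59 (SE 0.14, adjusted p 0.000639) and Srebf1, the transcription factor of lipid synthesis, at -0.95 (SE 0.14, adjusted p 0.00372). Both fell from a vehicle level above wild type. The means in wild type, vehicle and AP20187 muscle were 3.55, 4.34 and 2.75 for Scd2. For Srebf1 they were -0.69, 0.74 and -0.22. Of 5 ketone body genes, 1 fell with AP20187, the transporter Slc16a1 at -1.38 (SE 0.35, adjusted p 0.0231).

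With AP20187, 14.3% of all genes rose and 15.0% fell. Of 11 genes of pyruvate entry, 4 fell with AP20187, led by Pdp1, the phosphatase that opposes the Pdk kinases, at -0.77 (SE 0.12, adjusted p 0.00397). Pdp1 fell from a raised vehicle level, with means of 3.57 in wild type, 4.46 with vehicle and 3.69 with AP20187. Of 22 other regulators of oxidative metabolism, 7 rose and 2 fell. The rises included Sirt1, a deacetylase that acts on Ppargc1a, at 1.61 (SE 0.16, adjusted p 0.000946), and Nrip1, a corepressor of oxidation genes, at 1.27 (SE 0.12, adjusted p 0.000732). Rxrg, a partner of the PPAR receptors, fell by 0.93 (SE 0.10, adjusted p 0.0011). Nrip1 had been lower in vehicle than in wild type muscle, at 0.39 and 0.28 against 1.85 and 1.61, and stood at 1.57 and 1.65 with AP20187.

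Markers of other cell types moved beside these results. Of all genes, 25.7% were higher and 12.6% lower with vehicle against wild type, and 14.3% rose and 15.0% fell with AP20187. The skeletal muscle markers were present on all muscle arrays, and 2 of 12, Mylpf and Mb, were lower with AP20187, at -0.52 (adjusted p 0.00634) and -0.64 (adjusted p 0.0138). Their summed signal over 9 genes with values on every array, on the linear scale where 1 is the 75th percentile, was 6900 to 7920 in wild type, 7830 to 8120 with vehicle and 6110 to 7210 with AP20187. Of 8 tested macrophage markers, 7 were lower with AP20187 than with vehicle, and the summed signal of 9 markers was 29.6 to 31.4 in wild type, 25.8 to 28.6 with vehicle and 15.3 to 16.5 with AP20187. Of 10 adipocyte markers, 2 were higher in vehicle than in wild type muscle, Cidec at 1.15 (adjusted p 0.035) and Fabp4 at 0.48 (adjusted p 0.0294), 1 was lower, Car3 at -3.34, and the median was 0.29. With AP20187 none of them was higher and 1 was lower. Their sums were 564 to 676, 306 to 404 and 224 to 359 in wild type, vehicle and AP20187 muscle, and without Car3, which muscle fibres also make, 170 to 221, 263 to 364 and 195 to 323. Without Car3, both vehicle arrays stood above both wild type arrays. Adipoq, specific to fat cells, read 3.31 and 4.12 with vehicle and 2.39 and 3.88 with AP20187, so those groups overlapped. Cd36 is also known from fat cells, endothelium and macrophages. Of 10 endothelial markers, none was called with AP20187, and their sums were 85.3 to 91.2 in wild type, 91.9 to 96.5 with vehicle and 67.6 to 85.8 with AP20187. Kdr, the brightest of them in vehicle muscle, read 4.87 and 5.08 with vehicle and 4.52 and 2.34 with AP20187. The difference with AP20187 was positive for 6 of the 10 and negative for 4, with a median of 0.04, so the lower sums do not stand for the list. Of 8 tested markers of proliferating cells, 6 were lower and 1, Pcna, was higher with vehicle than in wild type. Top2a, Ccnb1 and Cdk1 were not well above background on either vehicle array, and Ccna2 was on only 1. The fitted sizes for these genes are therefore no measured differences. The summed signal of 10 markers went the other way, at 8.68 to 9.08 in wild type and 11.1 to 12.2 with vehicle. The part of these shifts in the results was not tested, and in whole muscle fewer cells of a type and less RNA per cell cannot be told apart.

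In C2C12, none of the 30 tested genes was called with AP20187 by limma, where 0.324% of 11414 genes were higher and 0.202% lower. At an unadjusted p under 0.05, 1 of the 30 was higher and 2 were lower, together 10% against 14.3% of all genes. The median log2 difference was -0.13 over the 30 and -0.06 over all genes. Acot2 had the highest difference of the 30, with -2.27 and -2.19 on the vehicle arrays and -1.75 and -1 on the AP20187 arrays, a difference of 0.85 (SE 0.35, adjusted p 0.304). Its groups did not overlap, but the AP20187 arrays lay far apart. Pdk2 had the lowest, at -0.53 (SE 0.19, adjusted p 0.247), with -0.01 and 0.19 on vehicle and -0.63 and -0.25 on AP20187 arrays. Fabp3 read 3.14 and 3.33 on vehicle and 3.11 and 3.03 on AP20187 arrays, and Pdk4 read 0.88 and 0.79 against 0.76 and 0.65, and neither was called. Cpt1b and Acot1 were not well above background on any C2C12 array at the probes used, and a second Cpt1b probe was well above it on 2 of the 4. Hadhb was flagged on both AP20187 arrays and has no value there, and Acot13 has a value on 1 of them.

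The scaling decided the C2C12 counts. With quantile normalisation 14 of the genes were higher and 0 lower, and the median over all genes moved from -0.06 to 0.38. With the percentile over detected probes 12 were higher and 0 lower, and the median over all genes moved to 0.39. Relative to those medians the 30 genes stood at 0.03 and -0.07, against -0.07 under the scaling used here. In both settings almost all calls of the whole array were higher, 98.4% and 99.6% in place of 61.7%. With all 10 arrays in the fit, 1 gene was higher.

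Some genes of fat storage rose in C2C12, where 0.324% of all genes were higher and 0.202% lower. Of 12 tested genes of lipid release and storage, 3 were higher, led by Lpl, the lipase that frees fatty acids from lipoproteins, at 2.80 (SE 0.34, adjusted p 0.00192). Dgat2 was higher there too, at 1.28 (SE 0.17, adjusted p 0.00305). Thrsp, a regulator of lipid synthesis, was not well above background with vehicle and was at least 7.80-fold higher with AP20187 (adjusted p 0.000188). This bound sets the AP20187 mean against, on each vehicle array, the higher of the lowest signal well above background and the probe's own signal, as do the other bounds below. The remaining higher gene of lipid release and storage was Cidea. It was not well above background on either vehicle array and was at least 3.56-fold higher with AP20187 (adjusted p 0.03). Of 8 tested adipocyte markers 4 were higher, among them Fabp4 at 3.70 and Cfd at 3.69. Lpl, Fabp4 and Cfd were well above background on 1 of the 2 vehicle arrays. Adipoq was not well above background on either vehicle array and was at least 7.88-fold higher with AP20187 (adjusted p 0.000206). Of 11 tested skeletal muscle markers 1, Myh4, was lower, at -1.83 (SE 0.13, adjusted p 1.74e-05). The summed signal of 10 adipocyte markers was 16.3 to 18.8 with vehicle and 22.5 to 23 with AP20187. Car3 gave most of the vehicle sum, and without it the sums were 1.24 to 1.58 and 8.46 to 11.9. The sum of the muscle markers was 481 to 543 with vehicle and 401 to 445 with AP20187. The part of these shifts in the results was not tested.

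**Figure D4:**
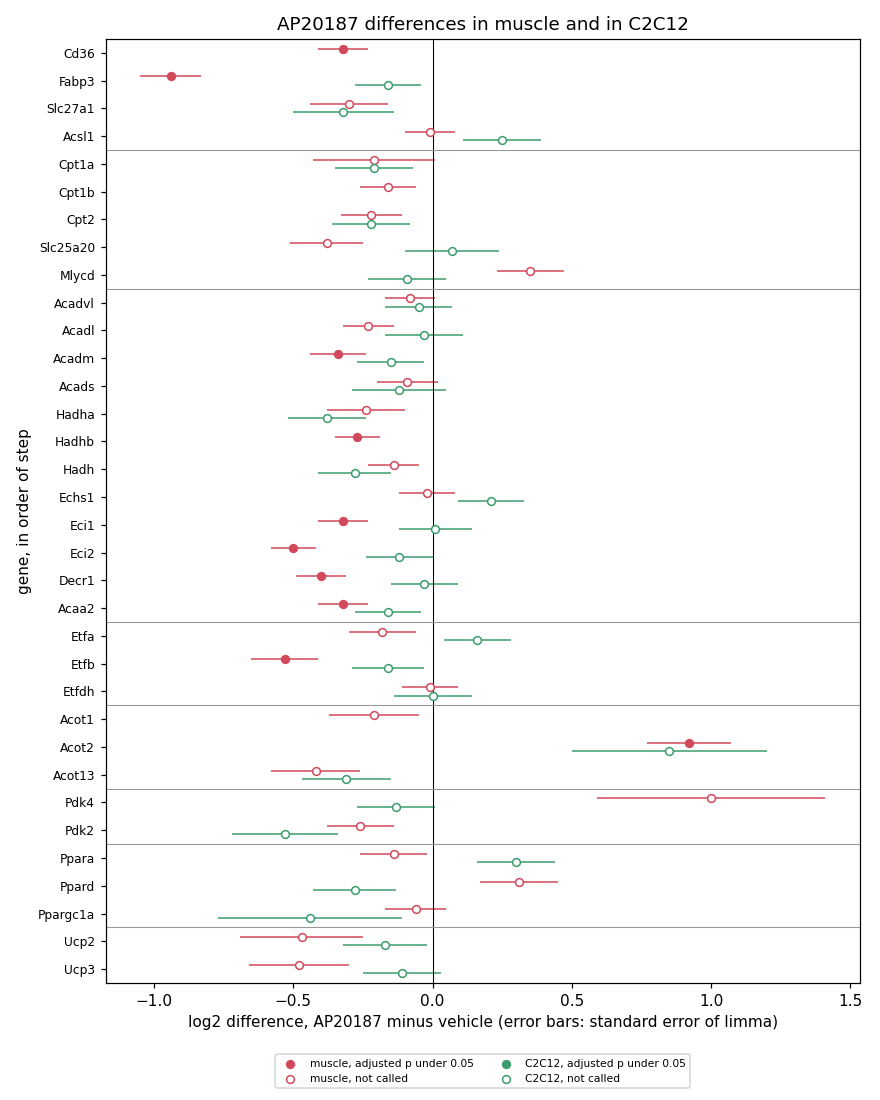
Log2 difference between AP20187 and vehicle in transgenic muscle (red) and in C2C12 (green) for each gene, with limma's standard error, filled where the adjusted p was under 0.05. No green point is filled, Cd36, Cpt1b, Hadhb and Acot1 have no green point, and Acot2 lies right of 0 in both.

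A test of the difference between the changes in muscle and in C2C12 called 2 of 33 genes, both lower in muscle, Cd36 and Fabp3, and none higher. Over all 14094 genes in this test 8.01% were higher and 4.02% lower. At an unadjusted p under 0.05, 3 of the 33 were higher and 6 lower, together 27.3% against 28.9% of all genes. For Fabp3 the change was -0.94 in muscle and -0.16 in C2C12, a difference of -0.78 (SE 0.16, adjusted p 0.0111). Cd36 entered this test through its muscle arrays only, and its fitted difference is no measured size. In C2C12 it read -3.94 and -4.51 with vehicle, not well above background, and -2.00 and -2.43 with AP20187, 1 of the 2 well above background, a rise of at least 1.47-fold, against a fall of 0.32 on the log2 scale in muscle. Whether changes of that size differ was not tested. Acot2 changed by 0.92 in muscle and by 0.85 in C2C12, and the difference was 0.07 (SE 0.33, adjusted p 0.909). With quantile normalisation 1 of the genes was higher and 13 lower, and with the percentile over detected probes 0 and 17. Without either wild type array, Pdk4 was called higher in muscle, at 1.13 with adjusted p 0.00272 and 0.00282 against 0.172.

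Untreated wild type muscle and vehicle-treated C2C12 differed at most genes. Of the 34 genes, 31 were higher in muscle and 2, Cpt1a and Ucp2, were lower, with Ucp3 not called. Over all 14292 genes tested 37.6% were higher and 41.2% lower, and the median was 2.20 over the 34 genes and -0.07 over all. Tissue, genotype and scan differ together here.

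Several genes of uptake and entry were far higher in muscle. Cpt1b was at least 174-fold and Cd36 at least 78.6-fold higher in muscle, where both were not well above background in C2C12 at the probe used. Among the other genes, Pdk2 was 6.35 higher on the log2 scale (SE 0.14, adjusted p 3.48e-11), Pdk4 5.19, Fabp3 5.12 and Acsl1 5.10. Ppargc1a was 4.08 higher (SE 0.14, adjusted p 7.08e-10). The enzymes of beta oxidation differed less, from 1.09 for Eci2 to 2.82 for Acadm, and all 12 were called.

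The genes lower in muscle were Cpt1a and Ucp2. Cpt1a was 1.00 and 1.15 in C2C12 against -0.01 and 0.57 in muscle (difference -0.79, SE 0.21, adjusted p 0.00459, and 0.0579 without wild type array 1), while Cpt1b was higher in muscle. Ucp2 was 0.81 and 1.1 in C2C12 against -0.28 and -0.65 in muscle (difference -1.42, SE 0.22, adjusted p 9.63e-05). Ucp3 read 0.94 and 1.01 in C2C12 and 0.75 and 1.23 in muscle at the probe used. At its other probe it was not well above background on any C2C12 array, so its level in C2C12 depends on the probe.

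**Figure D5:**
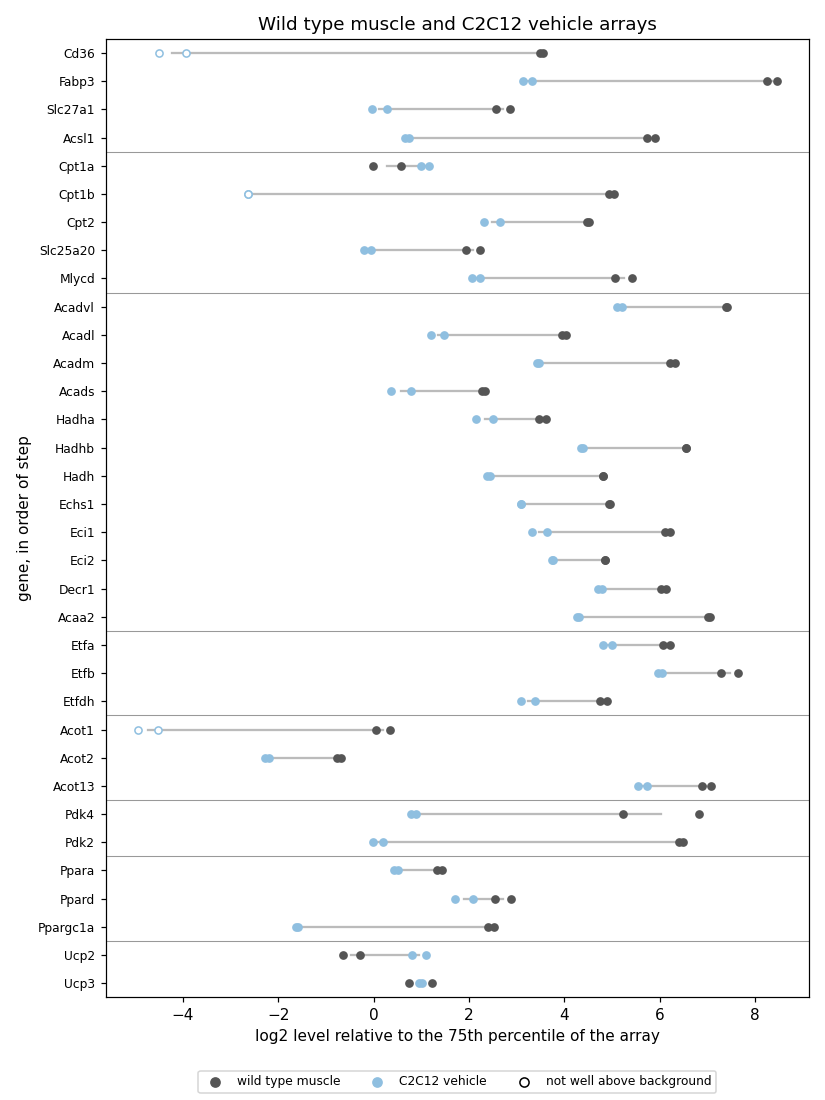
Log2 level of each gene on the 2 wild type muscle arrays (grey) and the 2 C2C12 vehicle arrays (light blue), with a line between the group means and open points where neither array of the group was well above background. The grey points lie right of the blue ones for all but Cpt1a, Ucp2 and Ucp3. Cd36, Cpt1b and Acot1 have open points in C2C12, so the length of their lines is no measured difference.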

How the data were processed

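Total RNA (150 ng) was labelled with Cy3, per the labels' protocols. The deposited scanner files hold intensity values from Agilent Feature Extraction 10.7.1.1, per the submitters' processing notes, background-subtracted per the file headers. A deposited table gives the authors' log2 values, which followed the scanner differences between arrays and were an alternative only, since no source used here gives their centring (medians per array -0.575 to 0.799).

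The level used was log2 of the processed signal minus the 75th percentile over gene spots of the array. Spots flagged as non-uniform or outlying were left out, and spots of a probe were averaged. The probe brightest over all 10 arrays stood for a gene, with probes that had a value on every array taken first. In muscle another Ppara probe was brighter than the one used, and in wild type muscle another Ucp3 probe was. Genes were named through RefSeq accessions (25521 of 26108 matched). A gene was tested if well above background on both arrays of a group, with limma 3.58.1 in R 4.3.3 (lmFit, eBayes with a trend), over the 6 muscle arrays, the 4 C2C12 arrays, or all 10 for the difference of changes and for muscle against C2C12. Scripts were tested on simulated data. The mean signal was not in the columns used here, so normexp took median signals. The genes and lists were chosen with earlier results of these data known. All 34 genes could be named; of other lists, the 3 called genes with the smallest p, and defining markers. The array number limits the precision. No promoter met the rule set for printing, a call of 2-fold or more with AP20187.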

Additional observations from a re-analysis of the deposited data

Results flagged for a closer look

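For 2 of the 34 genes the interaction test called the AP20187 change different between muscle and C2C12. The log2 change of Fabp3 differed by -0.78 (adjusted p 0.0111) and was called in 19 of 20 alternatives, with adjusted p 0.0552 on the deposited values. The fitted difference of Cd36 was -2.34, but it is set against C2C12 vehicle arrays on which Cd36 was not well above background, so neither that size nor its p is a measurement.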

How the results depend on the processing

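With AP20187 in muscle, the members higher numbered 1, but 2 with normexp, quantile, detected-probe scaling or the percentile over probes without flagged spots (chosen after seeing the data), 3 with the replicate block or the 4 transgenic arrays alone, and 1 to 3 without 1 array. The 9 lower became 4 with normexp, no filter or the added percentile, 2 with quantile or the deposited values, 3 without the trend, 16 with the replicate block, 5 with the transgenic arrays alone, and 2 to 4 without 1 array. For vehicle against wild type, 20 became 10 and 3 became 7 with quantile, 3 became 5 with detected-probe scaling, and without 1 array the range was 16 to 19 higher and 1 to 4 lower. For AP20187 against wild type, 14 became 8 with quantile, 6 became 3 without the filter, without the trend or on the deposited values, and without 1 array the range was 8 to 15 and 3 to 6. In C2C12, 0 higher became 14 (quantile), 12 (detected probes) and 1 (all 10 arrays), and stayed 0 to 0 without 1 array. For the difference of changes, 0 higher became 1 with normexp or quantile and 0 to 1 without 1 array, and 2 lower became 13 (quantile), 17 (detected probes), 1 (deposited values) and 4 (the added percentile). For muscle against C2C12, lower counts were 1 to 2 without 1 array. The causes were not tested. The replicate numbers were not taken as pairs, since 2 per group share only a number (correlations of deviations -0.04 to 0.14). A scan block could not be fitted, since wild type, transgenic muscle and C2C12 arrays each had a scan of their own.

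Values called in either setting changed sign with quantile normalisation for vehicle against wild type (Acsl1 -0.10, Acadvl -0.27, Hadhb -0.32) and in C2C12 (Fabp3 0.42, Acadvl 0.98, Acadm 0.49, Eci2 0.60, Decr1 0.94, Acaa2 0.70, Etfb 0.84, Etfdh 0.61, Acot13 0.64), and in C2C12 with detected-probe scaling (Acadvl 0.40, Acadl 0.42, Eci2 0.32, Decr1 0.41, Etfdh 0.44). Of the single-gene values under alternatives, 174 lost a call and 99 gained one with the same sign, and 154 changed sign without a call in either setting. Spots near background limit Cd36, Cpt1b, Acot1 and Ppargc1a in C2C12.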
